A study of Mus musculus with 6 samples.

Results

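The TAM receptor genes Tyro3, Axl and Mertk, and the genes of the secreted molecules that link phagocytes to dying cells, Gas6, Pros1 and Mfge8, were examined in bone marrow derived macrophages with and without SIRPa. Rows of the deposited normalized-count table were taken where the gene name was one of these 6 symbols. All 6 were present, out of 54232 genes in the table. The series held 3 libraries of SIRPa KO cells and 3 of WT cells from C57BL/6 mice of 8 weeks, all untreated. In both groups, bone marrow had been cultured for 7 days with 30% L929 cell-conditioned medium, a source of the macrophage growth factor CSF-1. The labels do not tell how the knockout allele was made.

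TAM receptors are tyrosine kinases on macrophages and other phagocytes. They recognise dying cells indirectly, because Gas6 and protein S, the product of Pros1, bind exposed phosphatidylserine with one end and the receptor with the other. Gas6 binds every TAM receptor, whereas protein S binds Tyro3 and Mertk and is not considered a ligand of Axl. Mfge8 instead links phosphatidylserine to alpha-v integrins. Besides engulfment, TAM signalling dampens inflammatory and interferon responses. SIRPa, the receptor for CD47, restrains engulfment, so the comparison of KO with WT asks whether its loss altered the transcripts of these uptake genes.

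The promoters of the 3 receptor genes are shown because these genes spanned the widest range of levels in these cells. Each sequence covers 250 bases before and 50 bases after the RefSeq start on GRCm38.p6, 5′ to 3′ on the gene's strand, and capitals mark GGGCGG or its reverse complement, the GC box that Sp1 and Sp3 can bind. The windows lie at chr2:128698665-128698964 on the plus strand for Mertk, chr7:25788684-25788983 on the minus strand for Axl and chr2:119799264-119799563 on the plus strand for Tyro3.
Mertk: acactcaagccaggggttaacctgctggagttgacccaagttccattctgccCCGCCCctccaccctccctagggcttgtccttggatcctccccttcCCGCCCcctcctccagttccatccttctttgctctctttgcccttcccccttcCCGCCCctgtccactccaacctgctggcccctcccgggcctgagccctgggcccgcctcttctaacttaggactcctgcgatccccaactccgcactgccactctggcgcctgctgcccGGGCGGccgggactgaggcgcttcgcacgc
Axl: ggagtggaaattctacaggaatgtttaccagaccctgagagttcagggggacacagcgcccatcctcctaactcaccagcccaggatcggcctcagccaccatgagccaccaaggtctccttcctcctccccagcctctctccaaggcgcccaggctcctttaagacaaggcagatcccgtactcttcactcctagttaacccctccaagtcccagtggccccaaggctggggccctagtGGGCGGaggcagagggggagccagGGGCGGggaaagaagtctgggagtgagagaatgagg
Tyro3: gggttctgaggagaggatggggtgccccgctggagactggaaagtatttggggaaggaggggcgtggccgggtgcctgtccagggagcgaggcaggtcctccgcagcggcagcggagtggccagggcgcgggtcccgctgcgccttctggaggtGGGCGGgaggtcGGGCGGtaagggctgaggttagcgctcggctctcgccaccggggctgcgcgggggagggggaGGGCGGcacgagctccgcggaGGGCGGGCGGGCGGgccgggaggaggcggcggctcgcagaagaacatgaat
The GC box occurred at 4 places in the Mertk window, 2 in the Axl window and 6 in the Tyro3 window, where 3 of them overlap one another. It was present in 35.7% of 32851 RefSeq promoter windows of this length. CpG dinucleotides numbered 14 in Mertk, 6 in Axl and 31 in Tyro3, against a median of 7 over all windows. A pair of GAAA separated by 2 bases, as in an interferon-stimulated response element, and a pair of AGGTCA separated by 4 bases, as in an LXR site, were searched on both strands and were in none of the 6 members' windows. The GAAA pair was present in 3.44% of all windows and the AGGTCA pair in 0.0152%.

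Levels of the 5 tested members spanned a far wider range than their differences between KO and WT, though Pros1 and Mertk were close. Per kb of annotated exon, Gas6 was the highest, at 9975 ± 1422 normalized counts per kb in KO and 9049 ± 1257 in WT (SD, n = 3 each). A normalized count is the number of reads assigned to a gene, divided by a factor for the depth of the library. Axl came next, at 2560.4 ± 448 per kb in KO and 2801 ± 44.3 in WT. Mfge8 followed, at 1447 ± 176 per kb in KO and 1499 ± 345 in WT. Pros1 stood at 567 ± 67.2 per kb in KO and 554 ± 33.7 in WT, close to Mertk with 536 ± 70.7 in KO and 448 ± 64.3 in WT. Pros1 was above Mertk in all 6 libraries, by 1.03 to 1.43 times, but their ranges across libraries overlapped, from 493 per kb for the lowest Pros1 library to 606 for the highest Mertk library. The steps from Gas6 to Axl, from Axl to Mfge8 and from Mfge8 to Pros1 showed no overlap between libraries. Per kb of coding sequence the order of the means was the same, but Axl was then above Mfge8 in 4 of 6 libraries. Tyro3 was last by a wide margin and is described separately.

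All 6 are protein-coding genes, placed here on GRCm38 by GENCODE M21. The receptor genes are Mertk (ENSMUSG00000014361, chr2:128698956-128802894, plus strand), Axl (ENSMUSG00000002602, chr7:25757273-25788705, minus strand) and Tyro3 (ENSMUSG00000027298, chr2:119797733-119818104, plus strand). The bridging genes are Gas6 (ENSMUSG00000031451, chr8:13465374-13494490, minus strand), Pros1 (ENSMUSG00000022912, chr16:62854307-62929346, plus strand) and Mfge8 (ENSMUSG00000030605, chr7:79133768-79149060, minus strand).

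**Figure D1:**
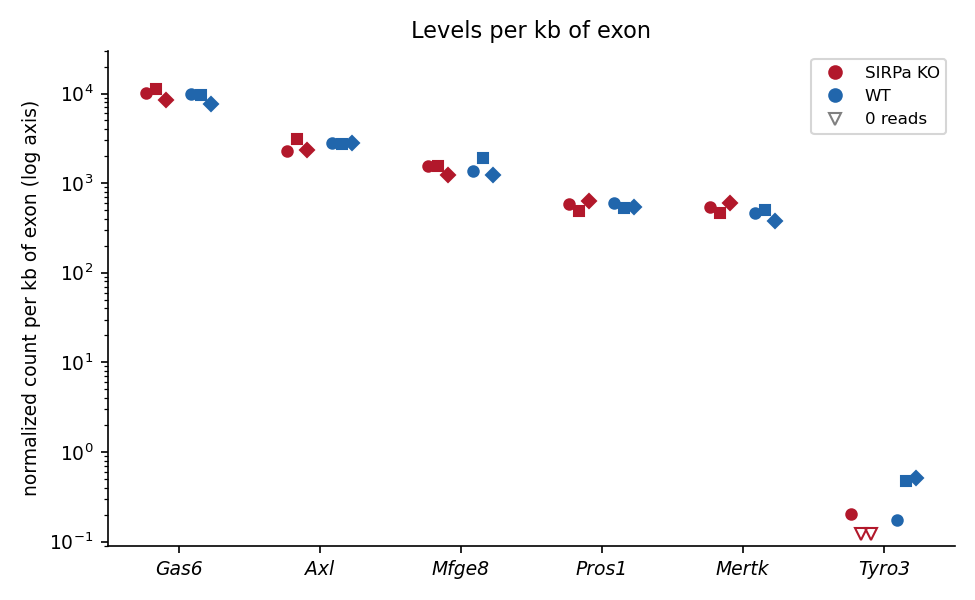
Normalized count per kb of annotated exon (log axis) for the 6 genes in each library, SIRPa KO in red and WT in blue, with circles, squares and diamonds for replicates 1, 2 and 3. Open triangles at the foot mark libraries with 0 reads. Gas6 is highest, at means of 9975 per kb in KO and 9049 in WT, and Tyro3 lies at or below 0.518 per kb.

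The libraries matched their labels and a macrophage identity. Sirpa averaged 2075 ± 56.0 normalized counts in KO cells and 106443 ± 10296 in WT cells (SD, n = 3 each). Recovered reads per library ran from 28653015 to 67446846, the deepest being WT replicate 3. Over all 13527 genes tested with limma, 0.00739% were called at an adjusted p under 0.05, which is Sirpa alone. All 10 macrophage markers were detected. Their summed normalized count, mostly Lyz2, ran from 936013 to 1075882 in KO and 1061879.5 to 1241629 in WT. Sums of fibroblast markers were 18.1 to 22.5 in KO and 18.2 to 23.3 in WT, and those of erythroid markers were at most 6.26 in KO and 6.42 in WT. T and NK cell markers summed to 10.8 to 30.0 in KO and 11.8 to 27.2 in WT. Neutrophil markers summed to 1679 to 2114 in KO and 1952 to 2129 in WT, and dendritic cell markers to 2790.2 to 3879.6 in KO and 2023 to 5263 in WT. Monocyte markers, mostly Cx3cr1, summed to 41107 to 43665 in KO and 42195 to 45720.5 in WT. Single markers went both ways, with log2 fold changes of -0.32 to 0.48 for macrophage and -0.36 to 0.54 for monocyte markers. Groups did not overlap for 2 of 10 macrophage and 1 of 8 monocyte markers, beside 4.66% of all genes tested. In each of these lists 2 had an unadjusted p under 0.05 (limma), beside 1.52% of all genes tested, and 0 were called. Endothelial markers summed to 2436 to 2672 in KO and 2384 to 2939 in WT, mostly Vwf, and megakaryocyte markers to 1772 to 3481 in KO and 1289 to 2691 in WT, mostly Pf4. B cell markers, nearly all Ighm, summed to 4963 to 5827 in KO and 6192 to 6718 in WT and so did not overlap, and their part in any result here was not tested. Among the markers with no read were Ly6g, Lum, Gp1bb, Cd3g, Ncr1, Hba-a1 and Alas2. The labels do not say whether the 3 replicates came from separate mice, so the spread behind every p-value could be technical.

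Of the 6 genes, 5 had enough reads for the test, and 0 of these 5 rose or fell in KO at an adjusted p under 0.05. The same count of 0 was given by edgeR and by DESeq2 on the recovered reads, and 0 of the 5 had an unadjusted p under 0.05 by any of these tools. For all 5 the KO and WT ranges overlapped, where 4.66% of all genes tested had ranges that did not. The median log2 fold change of the 5 was 0.03, beside -0.01 for all genes tested. In RNA from whole cultures, fewer cells that express a gene and less RNA per cell cannot be told apart.

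**Figure D2:**
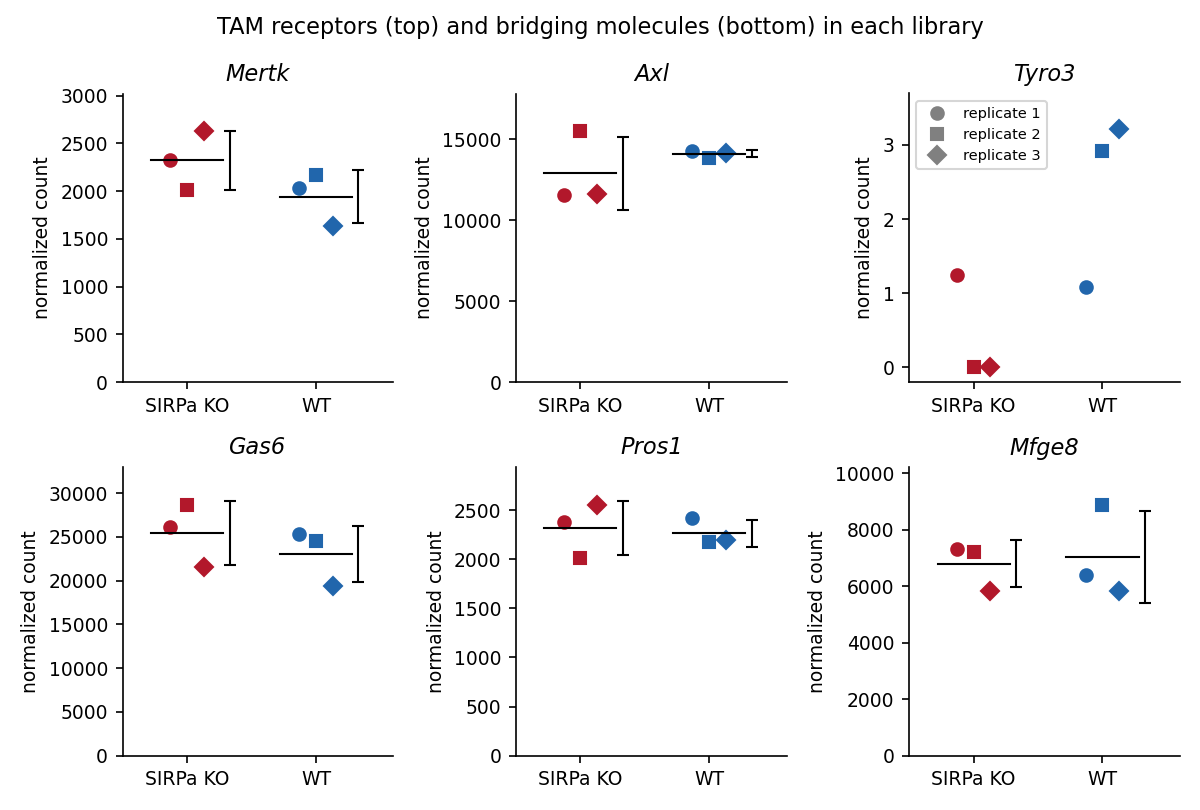
Normalized counts of the TAM receptors (upper row) and the bridging molecules (lower row) in each library, SIRPa KO on the left in red and WT on the right in blue. Lines are group means and bars to their right show the SD of 3 libraries, except for Tyro3, where only the library values are drawn. The groups overlap in every panel, and Tyro3 is at most 3.21 normalized counts.

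Mertk, the receptor most closely tied to uptake of apoptotic cells by macrophages, had the largest fold change among the 5 tested genes, though it did not pass. KO replicates 1, 2 and 3 held 2323, 2016 and 2629 normalized counts of Mertk, and WT replicates 1, 2 and 3 held 2034, 2168 and 1632. KO replicates 1 and 3 lay above every WT library, while KO replicate 2 lay below WT replicates 1 and 2. On the log2(value + 1) scale the difference, KO minus WT, was 0.26 (SE 0.14, 95% interval -0.05 to 0.57, limma adjusted p = 0.9998). That interval runs from 0.964-fold to 1.48-fold of the WT level. Of all genes tested, 14.7% had a larger absolute log2 fold change. Without WT replicate 3, which held the lowest value, the difference was 0.14, and without KO replicate 2 it was 0.36 (limma unadjusted p = 0.0386, adjusted p = 0.860). Without WT replicate 2 it was 0.34 (limma unadjusted p = 0.0464, adjusted p = 0.862). Of all 13527 genes tested, 643 had an unadjusted p under 0.05 without KO replicate 2. That number was 673 without WT replicate 2 and 205 with all libraries. The authors' deposited table gives Mertk a log2 fold change of 0.26 with an unadjusted p of 0.0902.

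Axl, the TAM receptor that binds Gas6 and that inflammatory signals and interferon can induce, leaned the other way. In the same order, KO libraries held 11531, 15488 and 11641 normalized counts of Axl, and WT libraries held 14278, 13847 and 14161. The WT libraries were nearly equal, with a coefficient of variation of 1.58%, whereas the KO libraries, at 17.5%, lay on both sides of them. KO replicate 2 was the highest of the 6 libraries and KO replicates 1 and 3 were the lowest. The log2 fold change was -0.14 (SE 0.13, 95% interval -0.43 to 0.14, limma adjusted p = 0.9998), that is, 0.744-fold to 1.10-fold of the WT level. Without KO replicate 2 it was -0.28, with an unadjusted p of 0.0307 and an adjusted p of 0.860 by limma. In that fit 643 of all 13527 genes tested had an unadjusted p under 0.05, beside 205 with all libraries. Without KO replicate 1 the log2 fold change of Axl was -0.07.

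Tyro3, the remaining receptor, was close to undetected. KO libraries held 1, 0 and 0 reads and WT libraries held 1, 3 and 6 reads, so it did not reach the minimum for the test. The most a library with a count of 0 allows was taken as 3 reads. In KO replicates 2 and 3, which had 0 reads, that corresponds to 0.0180% and 0.0252% of the Axl level per kb. The Tyro3 level itself was at most 0.0184% of the Axl level in any library. The 6 reads came from WT replicate 3, the deepest library. Over each group, 1 KO read and 10 WT reads gave a depth-corrected KO to WT ratio of 0.153, with an exact 95% interval of 0.0035 to 1.07 that covers counting error only. That interval just includes 1, so a difference in Tyro3 was not resolved by these reads. The Tyro3 gene lies on the same chromosome as Sirpa, 9.77 Mb away.

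Mertk and Axl did not vary together. The 2 libraries with the highest Mertk, KO replicates 3 and 1, were the 2 with the lowest Axl. Mertk and Axl also had the least alike profiles of the 10 pairs among the 5 tested genes, with a root mean square difference of 0.34 in centred log2 values over 6 libraries. The most alike pair was Mertk with Pros1, at 0.17. Pros1 differed from a flat profile by 0.11 and Mertk by 0.21, so Pros1 was nearer to a flat profile than to Mertk. Of the summed receptor level per kb, Axl made up 81.0%, 86.9% and 79.2% in KO replicates, and its share in WT replicates was 85.8%, 84.6% and 88.2%. Mertk made up nearly all of the rest. The mean Axl share was 82.4% ± 3.99 in KO and 86.2% ± 1.82 in WT (SD, n = 3 each). The log2 ratio of Axl to Mertk was 2.47 ± 0.42 in KO and 2.87 ± 0.23 in WT, a difference of -0.40 (two-sided exact permutation test, p = 0.30, where 3 libraries against 3 cannot give less than 0.10). KO replicate 2 lay within the range of the WT libraries and KO replicates 1 and 3 below it.

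**Figure D3:**
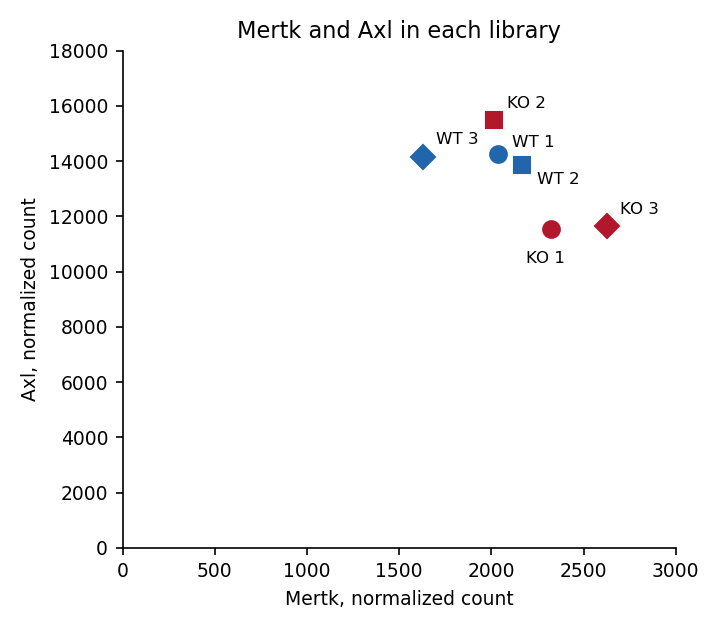
Normalized counts of Mertk (x axis) and Axl (y axis) in each of the 6 libraries, SIRPa KO in red and WT in blue, with replicate numbers beside the points. KO replicates 1 and 3 sit at the lower right, with Mertk at 2323 and 2629 and Axl at 11531 and 11641. KO replicate 2 sits above the WT libraries.

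Gas6, the ligand shared by the TAM receptors, was the most abundant member and was likewise not called. KO libraries held 26063, 28670.1 and 21513 normalized counts of Gas6, and WT libraries held 25269, 24519 and 19384. Replicate 3 was the lowest library of each group, and 2 KO libraries lay above every WT library. The log2 fold change was 0.14 (SE 0.14, 95% interval -0.18 to 0.46, limma adjusted p = 0.9998). Without WT replicate 3 it was 0.02, and without KO replicate 3 it was 0.26. Gas6 ranked between 123 and 189 among all genes by normalized count in KO libraries and between 156 and 225 in WT libraries. The end of Tmem255b, which held 33 to 49 reads per library, overlaps Gas6 on the opposite strand. How reads in that overlap were assigned cannot be told, because the strand setting is not known.

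Pros1, which encodes protein S, was the steadiest within groups of the 5 tested members. KO libraries held 2377, 2016 and 2555 normalized counts of Pros1, and WT libraries held 2424, 2176 and 2196. The highest and the lowest library were both KO libraries. The log2 fold change was 0.03 (SE 0.12, 95% interval -0.23 to 0.29, limma adjusted p = 0.9998). Its within-group SD was 0.14 on the log2 scale, and 37.5% of tested genes with a mean of at least 100 had a smaller one. Gas6 made up 94.5% ± 1.35 of the summed Gas6 and Pros1 level per kb in KO and 94.2% ± 0.695 in WT (SD, n = 3 each). The log2 ratio of Gas6 to Pros1 was 3.45 ± 0.38 in KO and 3.34 ± 0.18 in WT, a difference of 0.11 (two-sided exact permutation test, p = 0.70).

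Mfge8, the integrin-binding bridge, varied most within groups among the 5 tested genes. KO libraries held 7325, 7210.2 and 5842 normalized counts of Mfge8, and WT libraries held 6382, 8880.3 and 5843. WT replicate 2 was the highest library, and replicate 3 of each group was the lowest. The log2 fold change was -0.03 (SE 0.16, 95% interval -0.39 to 0.32, limma adjusted p = 0.9998), or 0.764-fold to 1.25-fold of the WT level. It was 0.15 without WT replicate 2 and -0.16 without WT replicate 3, so that its sign rested on single libraries. Its within-group SD of 0.26 on the log2 scale was larger than that of 84.8% of tested genes with a mean of at least 100.

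**Figure D4:**
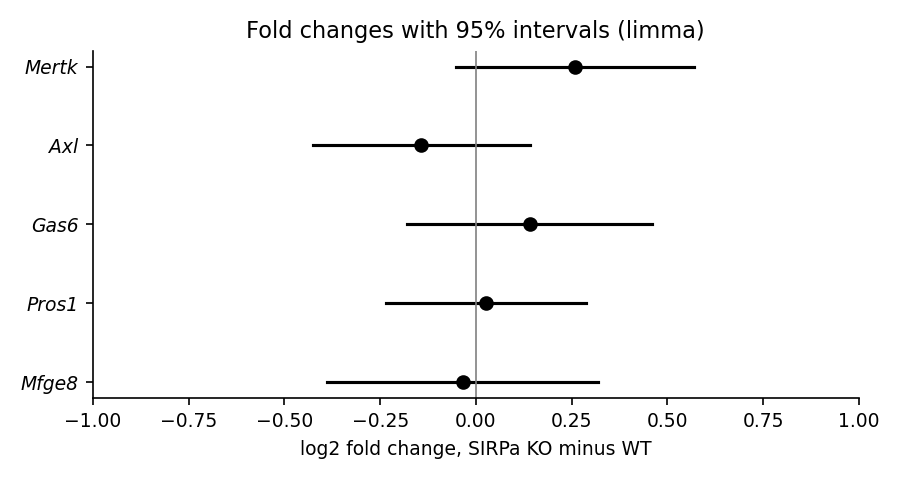
Log2 fold change, SIRPa KO minus WT, of the 5 tested genes (points) with 95% intervals from limma (lines). Every interval includes 0, and Mertk reaches furthest, to 0.57.

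The genes whose profiles over the 6 libraries were most like each member differed from member to member. The measure was the root mean square difference of log2 values centred on each gene's mean, over 9882 named genes with a mean of at least 100. For Mertk these were Slc8a1, a sodium-calcium exchanger (0.029), Camsap2, which binds microtubule minus ends (0.033), and Erc1 (0.036). For Axl they were Nthl1, a DNA glycosylase (0.041), Fastkd3 (0.041) and Faap20 (0.044). For Gas6 they were Fam234b (0.031), Tarbp1 (0.043) and Rcc2 (0.051). For Pros1 they were Ttc8 (0.020), the small GTPase Rab6a (0.025) and Nr1d2, a clock repressor (0.030). For Mfge8 they were Dusp4, a MAP kinase phosphatase (0.035), Mxd1 (0.042) and Edc4 (0.044). Within 0.05 of Pros1, whose profile was the flattest of the 5, lay 66 genes. That number was 10 for Mertk, 7 for Axl, 5 for Mfge8 and 2 for Gas6. With 6 libraries such closeness is a description.

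Mertk (chr2:128698956-128802894, GRCm38, plus strand) is a neighbour of the targeted gene: its end is 789.9 kb from the start of Sirpa at 129592835. A difference linked to the targeted locus therefore cannot be told apart from one that follows loss of SIRPa. Of 34 genes that start between those positions, 16 were tested and 0 were called (limma), and 12 were above and 4 below WT. The median log2 fold change of the 16 was 0.20, beside -0.01 for all genes tested, of which 48.2% were above WT. Leaving out KO replicate 3 gave a median of 0.097, and leaving out WT replicate 3 gave 0.12. The KO and WT ranges did not overlap for 3 of the 16, or 18.8%, beside 4.66% of all genes tested. An unadjusted p under 0.05 was reached by 1 of the 16, or 6.25%, beside 1.52% of all genes tested. That background is lower than a threshold of 0.05 would give among unchanged genes. Whether the p-values here, adjusted ones included, ran too high was not tested. Genes at an unadjusted p under 0.05 (limma) numbered 205 with all libraries and 116 to 673 when single libraries were left out. Tmem87b, the tested gene nearest to Mertk, averaged 1435 ± 101 normalized counts in KO cells and 1433 ± 224 in WT cells (SD, n = 3 each). F830045P16Rik, the tested gene nearest to Sirpa, ends 56.2 kb before it and averaged 28.2 ± 13.9 normalized counts in KO cells and 14.3 ± 1.91 in WT cells (SD, n = 3 each). It was 1 of the 3 genes without overlap, with a log2 fold change of 0.83, or 0.47 without KO replicate 1. Gm14040, which lies within it, held 30.03, 29.8 and 19.3 normalized counts in KO replicates, while WT replicates held 14.1, 7.77 and 10.7. Its log2 fold change was 1.21 (SE 0.35, unadjusted p = 0.00597, limma adjusted p = 0.9998), and it was the gene with the unadjusted p under 0.05. Its groups did not overlap either, and reads of these overlapping genes may be shared. The remaining gene without overlap was Gm10762, which overlaps Zc3h6 and was named after its values were seen.

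Genes that act with the TAM system were examined in 9 lists holding 109 genes, of which 98 were tested and 0 rose or fell (limma, edgeR and DESeq2). Of the 98, 38 were above and 60 below WT. KO and WT ranges did not overlap for 9, or 9.18%, beside 4.66% of all genes tested. An unadjusted p under 0.05 was reached by 9, or 9.18%, beside the low background of 1.52% of all genes tested. The 9 with an unadjusted p under 0.05 were 6 interferon-stimulated genes and 3 LXR targets. Because the lists were chosen with earlier results of these data known, these shares are a description. The lists' median log2 fold changes are set beside -0.01 for all genes tested.

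Other receptors of phosphatidylserine numbered 17, of which 13 were tested, 10 above and 3 below WT, with a median log2 fold change of 0.04. Without KO replicate 3 or WT replicate 3, 7 were above and 6 below WT. Lrp1, a large endocytic receptor, stood at 104560.1 ± 25902 normalized counts in KO cells and 90291 ± 29431 in WT cells (SD, n = 3 each). Stab1 was 45730.3 ± 9869 in KO and 36890.1 ± 12727 in WT. Itgav, the alpha-v integrin chain that Mfge8 engages, was 20118 ± 822 in KO and 18118 ± 3205 in WT.

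Other bridging molecules and ligands numbered 11, of which 8 were tested, 1 above and 7 below WT (median -0.12). Without KO replicate 3 or WT replicate 1, 4 were above and 4 below WT. Lgals3, a galectin reported to bind Mertk, was 97002 ± 12355 in KO and 115564 ± 10576 in WT, with a log2 fold change of -0.26 (SE 0.14). Calr, the chaperone that marks dying cells when exposed, was the member above WT, at 84006 ± 11181 in KO and 77360.4 ± 9611 in WT. C1qb, of the complement component that tags dying cells, was 75378 ± 9652 in KO and 78188 ± 8618 in WT.

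Gas6 and protein S need vitamin K dependent carboxylation to bind phosphatidylserine. All 7 genes of that route and of propeptide cleavage were tested, 3 above and 4 below WT (median -0.01). Furin, a propeptide protease, was 6722 ± 859 in KO and 6759.6 ± 830.5 in WT, Vkorc1l1 was 1318 ± 157 in KO and 1202 ± 49.1 in WT, and Vkorc1, the vitamin K epoxide reductase, was 682 ± 98.6 in KO and 586 ± 148 in WT. Of 6 genes of receptor shedding 5 were tested, 2 above and 3 below WT (median -0.03). The proteases that cleave Mertk and Axl from the surface were abundant. Adam17 was 13238 ± 1029 in KO and 12939 ± 918 in WT, and Adam10 was 11845 ± 1551 in KO and 10634 ± 17.7 in WT. Frmd8, which stabilises the ADAM17 complex, was 1408 ± 221 in KO and 1503 ± 137 in WT.

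Of 10 genes that govern exposure of phosphatidylserine 8 were tested, 5 above and 3 below WT (median 0.12). Tmem30a, the flippase subunit, was 8138 ± 457 in KO and 8501 ± 961 in WT. The scramblase gene Ano6 was 6011 ± 358 in KO and 5361 ± 866 in WT. Of 18 signalling genes 17 were tested, 8 above and 9 below WT (median -0.0017). Rac1, the GTPase of the phagocytic cup, was 24973 ± 1849 in KO and 24929 ± 1631 in WT. The adaptor Grb2 was 10942 ± 241 in KO and 11509.9 ± 209 in WT, and Jak1 was 10780.05 ± 814 in KO and 9935 ± 1120.4 in WT.

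Transcription factors that act on TAM genes and 2 sets of responsive genes completed the survey. All 12 factors were tested, 7 above and 5 below WT (median 0.03). Maf was 30785 ± 6358 normalized counts in KO cells and 25196 ± 3710.4 in WT cells (SD, n = 3 each) and Sp1 was 5598 ± 360.2 in KO and 5264 ± 592 in WT. LXR, the oxysterol receptor, can induce Mertk in macrophages. Of 8 LXR targets 2 were above and 6 below WT (median -0.14), and Mertk, above WT, was not called. The part of LXR in the Mertk values was not tested. Smpdl3a was 10518 ± 237 in KO and 11856 ± 1185 in WT, Scd2 was 6427 ± 496 in KO and 7927 ± 1093 in WT, and the cholesterol exporter Abca1 was 3991 ± 426 in KO and 3977 ± 915 in WT. The 3 targets with an unadjusted p under 0.05 were Scd2, Abcg1 and Scd1, the last 2 named after their values were seen.

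All 20 interferon-stimulated genes were below WT (median -0.50), where 48.2% of all genes tested were above WT. KO and WT ranges did not overlap for 1 of the 20, beside 4.66% of all genes tested. An unadjusted p under 0.05 (limma) was reached by 6 of the 20, beside 1.52% of all genes tested. Without KO replicate 1, 17 of the 20 were below WT, the median was -0.22 and 1 had an unadjusted p under 0.05. Without WT replicate 3, 19 were below, the median was -0.32 and 0 had an unadjusted p under 0.05 (limma). Oasl2 was 7593 ± 2368 in KO and 9203 ± 418 in WT, Oas3 was 6367 ± 1459 in KO and 7574 ± 675 in WT, and Rtp4 was 3791 ± 963 in KO and 4845 ± 937 in WT. Once KO replicate 1 was left out, log2 fold changes were -0.050 for Oasl2, -0.069 for Oas3 and -0.14 for Rtp4, beside -0.33, -0.27 and -0.37 with all libraries. This list bears on Axl, which interferon can induce. Its median deviation from the mean of the 6 libraries was -0.77 in KO replicate 1, 0.066 in KO replicate 2 and -0.0064 in KO replicate 3, where WT replicates stood at -0.0092, 0.25 and 0.34. Axl deviated by -0.22, 0.21 and -0.20 in KO replicates 1, 2 and 3, where WT replicates stood at 0.090, 0.046 and 0.078. Thus KO replicate 1 was low for both, while KO replicate 3 was low for Axl with the list near its mean. The part of interferon-stimulated genes in the Axl values was not tested.

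**Figure D5:**
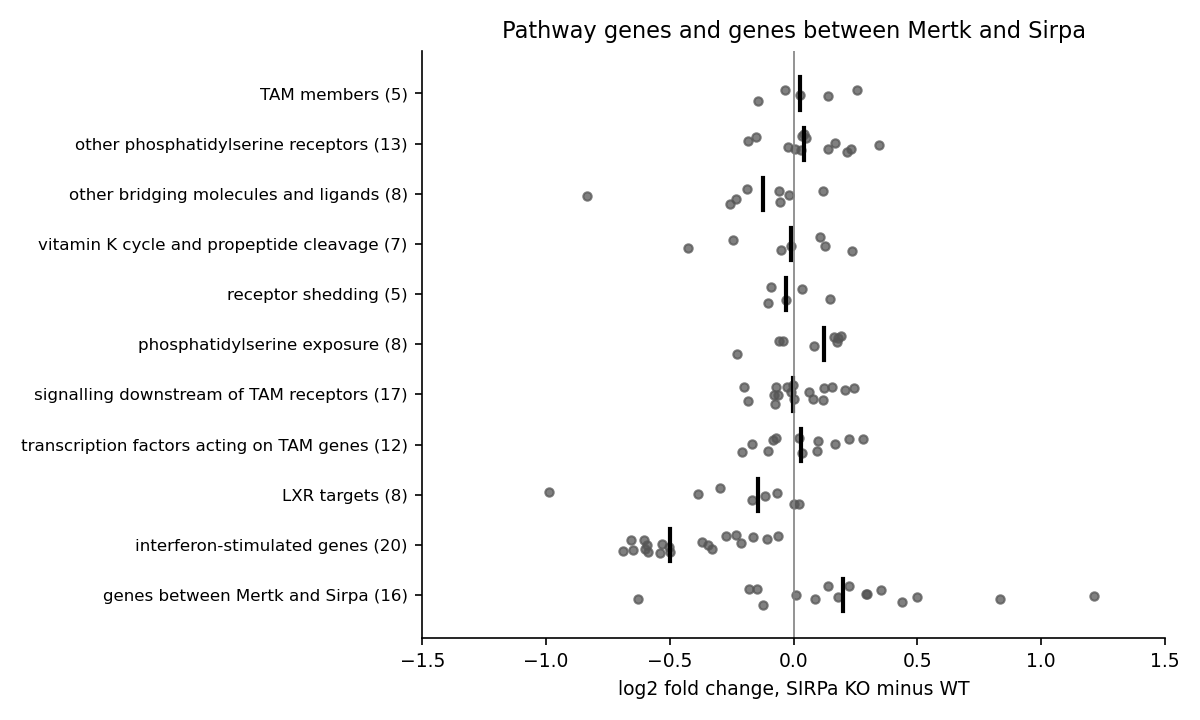
Log2 fold change, SIRPa KO minus WT, of each tested gene (points) in the pathway lists and among the genes between Mertk and Sirpa, with the number tested in brackets and bars at the medians. The interferon-stimulated genes all lie below 0 (median -0.50), and the genes between Mertk and Sirpa have a median of 0.20.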

How the data were processed

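RNA of 6 macrophage libraries was analysed from 1 deposited table. Per the submitters' processing notes, the authors worked on GRCm38 with STAR 2.5.1b, CASAVA 1.4, DESeq2 1.22.2 and featureCounts 1.6.0, while the design text in the labels names a stranded kit and TopHat 2.0.10. The sources used here leave out which aligner made the table, the strand setting and the annotation release. The 6 library columns, as deposited, are a signal: gene counts divided by the authors by each library's size factor. Since 100% of positive values were whole multiples of a step (tolerance 0.001 reads), reads could be recovered. Per the file headers, the deposited table also holds a log2 fold change, a test statistic, which is a score without fixed range, and p-values.

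Values were tested as log2(value + 1), a scale that shrinks changes of low genes, with limma 3.58.1 (R 4.3.3, intensity trend, no block, two-sided, Benjamini-Hochberg adjustment over 13527 genes with at least 10 normalized counts in at least 3 libraries, threshold 0.05). Alternatives were edgeR 4.0.16 (quasi-likelihood) and DESeq2 1.42.0 on recovered reads, other pseudocounts, filters, scalings and variance models, the replicate number as a block, and leaving out each library. Ratios used exact permutation tests in SciPy 1.17.1. Lengths and positions came from GENCODE M21 (54165 IDs matched) and promoters from RefSeq (6 of 6 members matched). Reads of overlapping genes may be split. Precision was limited by the spread between libraries for every member except Tyro3, where depth (28653015 to 67446846 reads) limits it. Scripts were tested on simulated counts. Replicates of a group differed beyond sampling noise (lowest chi-square per degree of freedom, 13.1). Deviations of same-numbered libraries had correlations of 0.013, 0.31 and 0.13, beside -0.26 to 0.15 for differently numbered ones. The main test did not pair libraries by number, and whether the numbers mark pairs is not settled by these values.

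Members and lists were chosen with earlier results of these data known. Named genes were the members, Sirpa, the 3 highest by mean in each pathway list (in marker lists the highest only, or members at 0), between Mertk and Sirpa the tested genes nearest to each and any with an unadjusted p under 0.05, and the 3 genes most like each member. A few genes that the rule names are not reported here.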

Additional observations from a re-analysis of the deposited data

How the results depend on the processing

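No member was called under 17 of 18 alternatives, and Sirpa was the 1 gene called in each of those. Estimation of array weights did not converge and gave KO replicate 1 and WT replicate 1 43.2% and 46.4% of the total weight. With these weights 3498 of all 13527 genes tested were called. Among them were 2 of the 5 tested members (Mertk at 0.19, adjusted p = 0.0326, and Axl at -0.27, adjusted p = 0.00994, limma). Also called were 43 of the 98 tested pathway genes and 7 of the 16 tested genes between Mertk and Sirpa. Under these weights log2 fold changes turned to -0.027 for Pros1, 0.17 for Mfge8, -0.087 for Tmem87b, -0.15 for Calr, 0.036 for Furin, -0.25 for Vkorc1, 0.070 for Frmd8, 0.0031 for Tmem30a, -0.10 for Rac1, -0.0065 for Maf and -0.035 for Abca1. Median scaling turned Furin to 0.010. Under the other alternatives that kept all libraries, log2 fold changes ran from 0.26 to 0.28 for Mertk, -0.14 to -0.12 for Axl, 0.14 to 0.16 for Gas6, 0.02 to 0.05 for Pros1 and -0.05 to -0.02 for Mfge8.

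Leaving out each library in turn gave 0.14 to 0.36 for Mertk, -0.28 to -0.07 for Axl and 0.02 to 0.26 for Gas6, with limma adjusted p of 0.860 or more. Signs turned for Pros1 (-0.048 to 0.12), Mfge8 (-0.16 to 0.15), Tmem87b (-0.10 to 0.12), C1qb (-0.15 to 0.025), Furin (-0.11 to 0.10), Adam17 (-0.027 to 0.097), Frmd8 (-0.20 to 0.026), Tmem30a (-0.14 to 0.026), Rac1 (-0.057 to 0.044), Abca1 (-0.10 to 0.20) and the ratio of Gas6 to Pros1 (-0.075 to 0.30). The ratio of Axl to Mertk kept its sign (-0.64 to -0.24). That of Tyro3 to Mertk, -1.57 in all libraries (exact permutation p = 0.10, the smallest possible), was -3.52 with a pseudocount of 0.1 and -0.51 with 10, since Tyro3 had 11 reads in all. Without a filter Tyro3 was tested and not called (limma adjusted p = 0.943). With the replicate block the ratio of Axl to Mertk differed by -0.40 (exact sign-flip p = 0.50, where 3 pairs cannot give less than 0.25). With that block 1 gene was called, as without it, and not every library deviated most like its own number. The number of genes at an unadjusted p under 0.05 was 327 with the block and 205 without, and 116 to 673 when single libraries were left out. The cause of these changes was not tested.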
